A study of Rattus norvegicus with 12 samples.

Results

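The 10 genes described here encode enzymes that make, break down or consume glycine, choline and the first precursor of creatine: Gatm, Bhmt, Dmgdh, Sardh, Shmt1, Gldc, Amt, Prodh2, Agxt2 and Dao. They were found by their symbols among the 32623 genes of a count table, where all 10 were listed and all 10 passed the filter on low counts. Messenger RNA was sequenced from flash-frozen kidney cortex of male rats aged 6 weeks from a mutant line of the SS rat, the Dahl salt-sensitive strain. HOMO rats carried the Xdh mutation on both alleles, HET rats on a single allele, and WT rats were wild-type littermates, with 4 libraries for each genotype. Xdh encodes xanthine dehydrogenase, which turns hypoxanthine and xanthine into uric acid. All 3 groups, WT included, bear the strain label of the line, SS-Xdhem1Mcwi, and share the SS background. The base change of the mutation is not given in the labels used here. The HOMO and WT libraries are numbered 1 to 4 and the HET libraries 1, 2, 4 and 5, and values are given in that order. Nothing in the labels ties a library to an animal of its own, so the p-values measure the spread between these libraries, part of which may be technical.

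Kidney proximal tubule cells are the main site in the body where arginine and glycine are joined into guanidinoacetate, which other tissues methylate to creatine. The same cells oxidise choline to betaine, pass the methyl groups of betaine to homocysteine, and strip the remaining ones off through dimethylglycine and sarcosine until glycine is left. Glycine is then exchanged with serine or split by the mitochondrial glycine cleavage system, and several neighbouring enzymes handle glyoxylate, hydroxyproline, D-amino acids and methylated arginines.

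Library totals were 22858907 to 36998378 counts in HOMO, 18995464 to 37023629 in HET and 28481944 to 36119168 in WT. Levels below are CPM, read counts relative to library size, scaled by TMM factors, which correct each library for its composition. Xdh, the mutated gene, had 61.7, 60.7, 229.6 and 57.6 CPM in HOMO libraries, 182, 197, 140.3 and 158 CPM in HET libraries and 281, 379.6, 212 and 270.0 CPM in WT libraries. For Xdh, HOMO library 3 thus lay above all HET libraries and inside the WT range, and it is called the library labelled HOMO 3 below. The labels do not say how much Xdh RNA the mutation leaves. The summed proximal tubule and macrophage markers of this library, 3007 and 1985 CPM, lay within the range of the other HOMO libraries. So did its sums for thick ascending limb, distal convoluted tubule, endothelium and adipocyte markers. Its fibroblast (3358 CPM), T and B cell (14.3 CPM) and hepatocyte (136 CPM) sums were the lowest in HOMO. Its collecting duct (575 CPM) and podocyte (317 CPM) sums were the highest. Of 17 proximal tubule markers all 17 were lower in HOMO than in WT, with a median log2 fold change of -3.35, and their summed level was 2886 to 3274 CPM in HOMO and 25367 to 31170.4 CPM in WT, with none at 0. On the TMM scale markers of other parts of the nephron, of podocytes and of endothelium mostly fell too, with medians of -1.08 to -0.64. On that scale 3 of 4 thick ascending limb, 2 of 2 tested distal convoluted tubule and 4 of 5 collecting duct markers were lower. Of podocyte markers 3 of 5 were lower and 1 higher, and of endothelial markers 3 of 4 were lower and 1 higher. With libraries scaled by their totals alone, several of these were no longer called. Examples are log2 fold changes of -0.13 for Slc12a3 (distal convoluted tubule) and -0.00105 for Cldn16 (thick ascending limb). Kcnj1 (thick ascending limb) at -0.38 and Emcn (endothelium) at -0.71 were among those still lower. Synpo (podocyte) at 1.13 and Cdh5 (endothelium) at 0.99 were higher. Markers of fibroblasts and immune cells rose: all 5 fibroblast markers, summed to 3358 to 6534 CPM in HOMO and 551 to 820 CPM in WT, and all 6 macrophage markers, summed to 1662 to 2407 CPM in HOMO and 200.4 to 311 CPM in WT. The 5 tested T and B cell markers also rose, and their sum was 14.3 to 22.6 CPM in HOMO and 1.55 to 2.67 CPM in WT. Hepatocyte markers matter here because the liver also expresses several of the 10 genes. Of 7 tested, 3 were lower and 1 higher, with sums of 136 to 243 CPM in HOMO and 372 to 535 CPM in WT. In WT the sum was mostly Cyp2e1 at 315 ± 53.3 CPM and Tf at 84.6 ± 20.7 CPM, with Alb at 12.4 ± 14.8 CPM (SD, n = 4). Fewer proximal cells and less of an RNA per cell cannot be told apart in bulk tissue.

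All 10 genes were lower in HOMO than in WT (edgeR quasi-likelihood test, adjusted p of at most 1.68e-06), by log2 fold changes of -4.87 to -1.87 with a median of -3.60. Over all 15856 genes tested the median was 0.04, and 71.7% were called at an adjusted p under 0.05, 34.7% lower and 37% higher. In 10 of 10 genes the HOMO and WT ranges of CPM did not overlap, which held for 66.4% of all genes and, with HOMO lower, for 32.2%. When libraries were scaled by their totals alone, 2565 genes were lower and 10288 higher, against 5508 lower and 5861 higher on the TMM scale, and the median of all genes was 0.65. All 10 genes stayed lower on that scale, by -4.25 to -1.26. Without the library labelled HOMO 3 the 10 genes were lower by -5.03 to -1.80, with 70.7% of genes called.

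**Figure D1:**
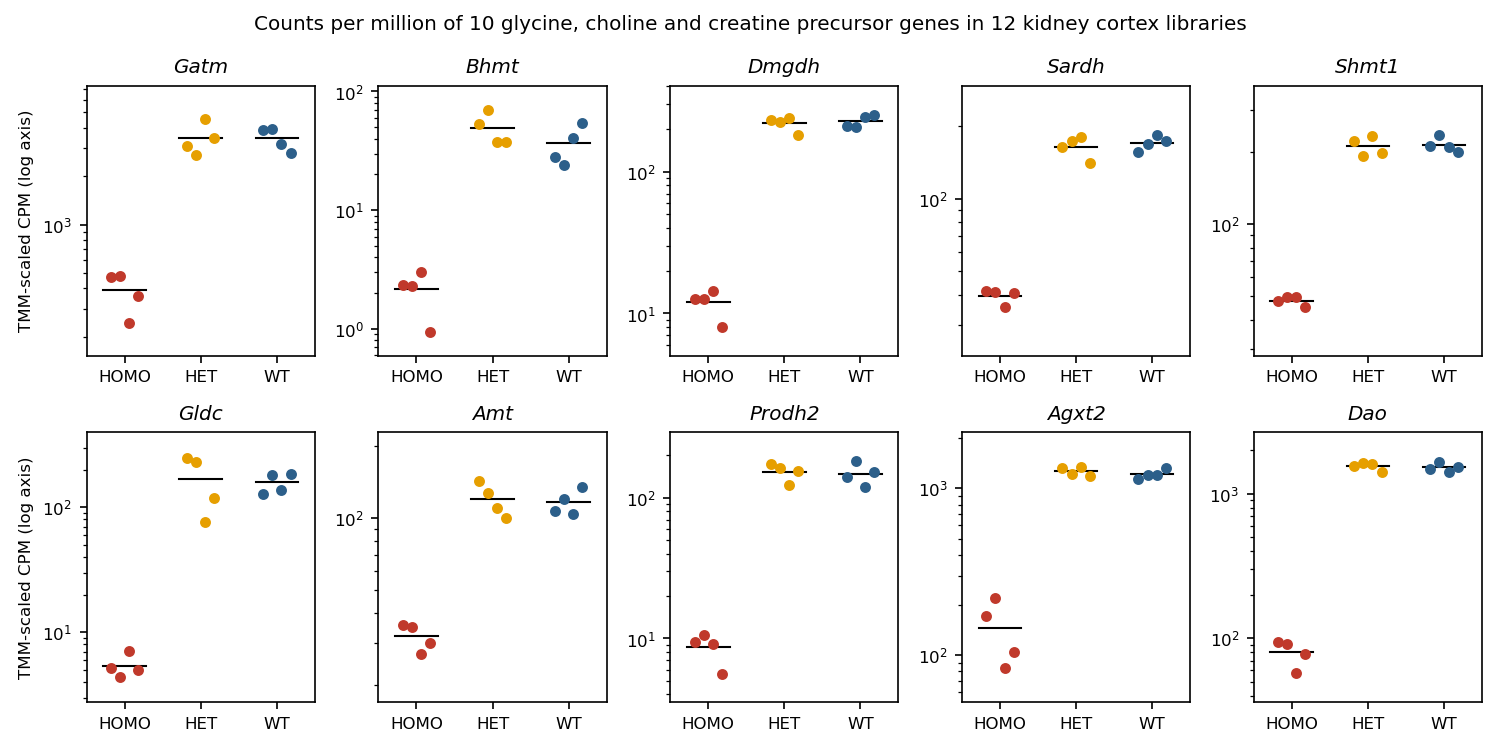
Each panel plots TMM-scaled CPM of 1 gene on a log axis for the 4 libraries of HOMO, HET and WT, with a bar at the group mean. In every panel the 4 HOMO points lie below all 8 HET and WT points, as for Dao at 57.7 to 94.8 CPM in HOMO and 1423 to 1658 CPM in WT.

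Gatm encodes arginine:glycine amidinotransferase, which makes guanidinoacetate, the precursor of creatine. It is listed as ENSRNOG00000000168 on chromosome 3 from position 114711562 (Rnor_6.0). Gatm had 473, 479.6, 243 and 359.7 CPM in HOMO libraries, 3079, 2714, 4563 and 3473 CPM in HET libraries and 3869, 3913, 3197 and 2791 CPM in WT libraries. The highest HOMO library was far under the lowest of the other genotypes, and the library labelled HOMO 3 was the lowest. The HOMO mean was 11.3% of that in WT, and the log2 fold change was -3.15 ± 0.24 (SE; adjusted p = 1.05e-07).

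Bhmt encodes betaine-homocysteine methyltransferase, which takes a methyl group off betaine and leaves dimethylglycine. It is listed as ENSRNOG00000011200 on chromosome 2 from position 23236575. Bhmt had 2.35, 2.29, 3.04 and 0.948 CPM in HOMO libraries, 53.1, 69.5, 37.9 and 37.6 CPM in HET libraries and 28.1, 23.9, 40.9 and 54.1 CPM in WT libraries. HOMO library 4 was the lowest, and the HET and WT libraries were mixed. Bhmt was the least abundant of the 10 in each genotype, and fell by 4.06 ± 0.38 on the log2 scale in HOMO (SE; adjusted p = 1.68e-06).

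Dmgdh encodes dimethylglycine dehydrogenase, the mitochondrial enzyme of the next step, and is listed as ENSRNOG00000023588 on the same chromosome from position 23289374. Its levels were 12.7, 12.7, 14.4 and 8.03 CPM in HOMO libraries, 233, 223, 241 and 183 CPM in HET libraries and 209.6, 206, 245 and 252 CPM in WT libraries. Dmgdh averaged 11.95 ± 2.74 CPM in HOMO and 228 ± 23.6 CPM in WT (SD, n = 4 each), a log2 fold change of -4.25 ± 0.17 (SE; adjusted p = 4.70e-10). Sardh, sarcosine dehydrogenase, carries out the step after it, from sarcosine to glycine, and is listed as ENSRNOG00000006916 on chromosome 3 from position 5737200. Sardh had 41.6, 40.9, 35.7 and 40.6 CPM in HOMO libraries, 164, 173, 181 and 141 CPM in HET libraries and 156, 169, 184 and 174 CPM in WT libraries. The groups stood apart here too, but the fall was smaller, with the HOMO mean at 23.2% of that in WT and a log2 fold change of -2.11 ± 0.09 (SE; adjusted p = 6.22e-10).

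Shmt1 encodes the cytosolic serine hydroxymethyltransferase, which interconverts serine and glycine with folate as the carrier of the carbon unit. It is listed as ENSRNOG00000005275 on chromosome 10 from position 47031050. Shmt1 had 47.9, 49.6, 49.6 and 45.1 CPM in HOMO libraries, 224, 193, 233 and 198 CPM in HET libraries and 212, 237, 211 and 200.1 CPM in WT libraries. These HOMO libraries were the most alike of any of the 10 genes, with a coefficient of variation of 4.44%. The log2 fold change was -2.16 ± 0.08 (SE; adjusted p = 2.66e-10).

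Gldc and Amt encode the P and T proteins of the glycine cleavage system, the decarboxylase that opens the reaction and the aminomethyltransferase that hands the remaining carbon to folate. Gldc (ENSRNOG00000011599, chromosome 1 from position 248297331) had 5.20, 4.38, 7.03 and 5.01 CPM in HOMO libraries, 248, 229.7, 75.6 and 119 CPM in HET libraries and 128, 182, 137 and 186 CPM in WT libraries. It showed the largest fall of the 10, to 3.41% of the mean in WT, a log2 fold change of -4.87 ± 0.39 (SE; adjusted p = 5.32e-07). Its HET libraries were also the most spread of any gene and group here, with a coefficient of variation of 49.9%. Amt (ENSRNOG00000050214, chromosome 8 from position 117068582) had 35.4, 34.9, 26.9 and 29.9 CPM in HOMO libraries, 142, 128, 109.7 and 100.2 CPM in HET libraries and 107, 120.2, 104 and 135 CPM in WT libraries. It showed the smallest fall of the 10, to 27.3% of the mean in WT, a log2 fold change of -1.87 ± 0.13 (SE; adjusted p = 4.10e-08).

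Prodh2 encodes the mitochondrial dehydrogenase that opens the breakdown of hydroxyproline, an amino acid released from collagen whose carbon ends as glyoxylate and pyruvate. Prodh2 (ENSRNOG00000057578, chromosome 1 from position 88955135) had 9.43, 10.6, 9.09 and 5.62 CPM in HOMO libraries, 173, 162, 123 and 155 CPM in HET libraries and 139.9, 182, 119 and 153 CPM in WT libraries. HOMO library 4 was again the lowest, and the log2 fold change was -4.09 ± 0.20 (SE; adjusted p = 3.73e-09).

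Agxt2 encodes a mitochondrial aminotransferase that can pass amino groups to glyoxylate to form glycine, and that breaks down beta-aminoisobutyrate and dimethylarginines. Agxt2 (ENSRNOG00000017821, chromosome 2 from position 60337667) had 171, 221, 83.2 and 104 CPM in HOMO libraries, 1324, 1218, 1354 and 1179.7 CPM in HET libraries and 1143, 1209, 1199.8 and 1333 CPM in WT libraries. Its HOMO libraries were the most spread of the 10 genes in HOMO, with a coefficient of variation of 43.6%, and those labelled 3 and 4 were the lowest. The log2 fold change was -3.08 ± 0.26 (SE; adjusted p = 3.56e-07). Dao encodes D-amino acid oxidase, a peroxisomal enzyme that removes D-serine and D-alanine and can turn glycine into glyoxylate. Dao (ENSRNOG00000054962, chromosome 12 from position 48354196) had 94.8, 91.1, 57.7 and 77.9 CPM in HOMO libraries, 1556, 1627, 1618 and 1406 CPM in HET libraries and 1479.9, 1658, 1423 and 1519.9 CPM in WT libraries. Its HOMO mean was 5.28% of that in WT, and the log2 fold change was -4.24 ± 0.15 (SE; adjusted p = 1.87e-10).

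Levels of different genes can be compared per length, as RPKM, the count per gene length and TMM-scaled library size. In HOMO, Gatm had the highest mean at 154 ± 44.2 RPKM, followed by Dao at 77.2 ± 16.1, Agxt2 at 64.0 ± 27.9, Amt at 26.2 ± 3.37 and Shmt1 at 23.5 ± 1.04 RPKM (SD, n = 4). Below them were Sardh at 9.66 ± 0.663, Prodh2 at 6.07 ± 1.49, Dmgdh at 3.74 ± 0.856, Gldc at 1.43 ± 0.300 and Bhmt at 1.16 ± 0.470 RPKM. The HOMO ranges overlapped between Gatm and Agxt2, Dao and Agxt2, Amt and Shmt1, Prodh2 and Dmgdh, and Gldc and Bhmt. In WT, Dao at 1460.4 ± 96.2 RPKM and Gatm at 1362 ± 215 RPKM led with overlapping ranges, and Agxt2 followed at 541 ± 35.3 RPKM (SD, n = 4). Shmt1 at 105 ± 7.61, Prodh2 at 104 ± 18.4 and Amt at 96.1 ± 11.5 RPKM overlapped in WT, as did Gldc at 41.8 ± 7.90 and Sardh at 41.5 ± 2.83 RPKM. Dmgdh stood between those groups at 71.3 ± 7.37 RPKM and Bhmt below them at 19.7 ± 7.31 RPKM. Sardh, Amt and Gatm were thus placed higher in the HOMO order than in the WT order, and Prodh2, Dmgdh, Gldc, Dao and Shmt1 lower.

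The question that HET libraries answer is whether a single mutated allele changed these genes. Against WT, 0 of 10 genes were called, each at an adjusted p of 1, with log2 fold changes of -0.05 to 0.43. The same test called 0 of the 15856 genes (0%), as did DESeq2 and limma voom, and at an unadjusted p under 0.05 there were 318 genes by edgeR, 330 by DESeq2 and 229 by limma voom. HET and WT ranges overlapped for all 10 genes, where 1.62% of all genes had ranges apart and 0.744% had HET lower. Bhmt had the highest HET mean relative to WT, with 49.5 ± 15.1 CPM in HET and 36.7 ± 13.6 CPM in WT (SD, n = 4 each), a log2 fold change of 0.43 ± 0.32 (SE; unadjusted p = 0.204 in the edgeR test). The 95% interval of the HET to WT log2 fold change was narrowest for Shmt1, at -0.20 to 0.16, and widest for Gldc, at -0.65 to 0.82. A change in Gldc within these bounds is therefore not excluded. The fit shares its estimate of spread over all genotypes, so the intervals do not measure the spread of HET and WT libraries alone.

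Against HET, all 10 genes were lower in HOMO, by -4.95 for Gldc to -1.92 for Amt with a median of -3.64, and no ranges overlapped. In that comparison 70.6% of all genes were called, 34.5% lower and 36.2% higher. Ranges stood apart for 64.4% of genes, and with HOMO lower for 31.7%. The comparisons of HOMO with WT and with HET share the HOMO libraries. In the authors' deposited table the 10 genes were also lower in HOMO, by -4.86 to -1.87 against WT and by -4.95 to -1.91 against HET, and 0 were called in HET against WT.

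**Figure D2:**
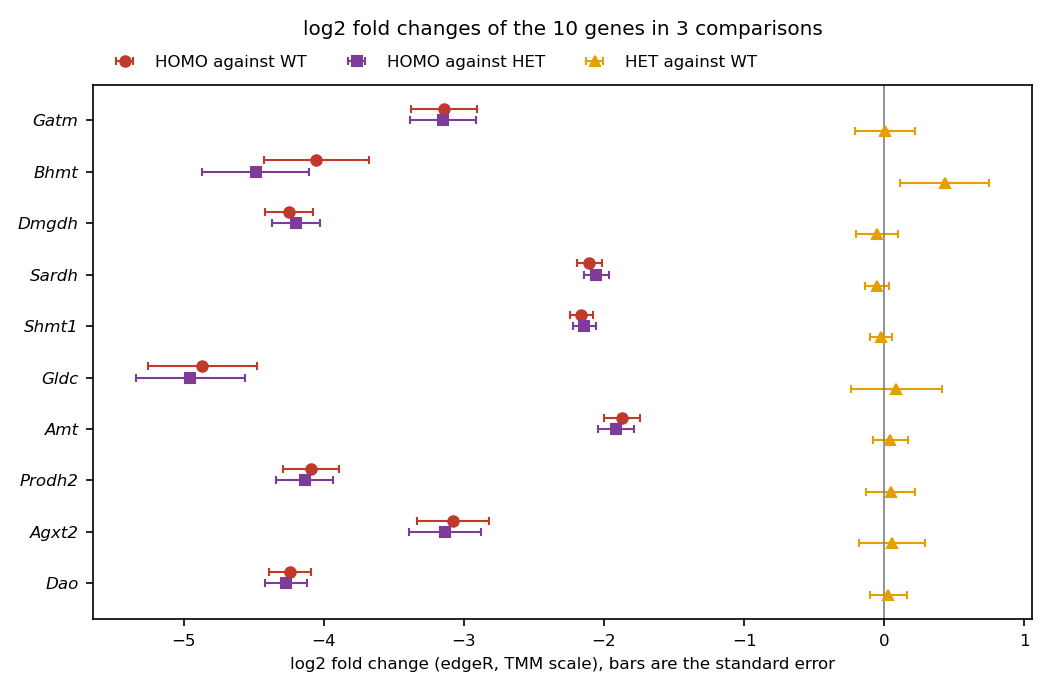
Log2 fold changes of the 10 genes, with standard errors as bars, are drawn for HOMO against WT, HOMO against HET and HET against WT. Both HOMO comparisons run from about Gldc at the left, -4.87 against WT, to Amt at -1.87, while the HET values lie between -0.05 and 0.43.

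Among the 8 HET and WT libraries, where the genotypes did not separate, 45 pairs of the 10 genes were correlated on log2 RPKM, and 0 passed the Benjamini-Hochberg adjustment (smallest adjusted p = 0.248, exact permutation tests, two-sided). Dmgdh and Sardh, the consecutive steps from dimethylglycine to glycine, had the highest Pearson r of 0.86 (exact permutation p = 0.00704) and a Spearman rho of 0.81 (exact permutation p = 0.0218), and r was 0.77 without the 2 libraries farthest from the median of Dmgdh. Gldc and Amt, of the same enzyme system, had r of 0.78 and rho of 0.81 (exact permutation p = 0.0219 and 0.0218), with r of 0.90 without the 2 farthest libraries. Gatm and Bhmt went opposite ways, with r of -0.79 and rho of -0.86 (exact permutation p = 0.0220 and 0.0107), and r of -0.96 without the 2 farthest. Gatm and Gldc had r of -0.78 and rho of -0.76 (exact permutation p = 0.0218 and 0.0368), but r was -0.43 without the 2 farthest libraries, so that relation rests on them. Each genotype alone has too few libraries for a value of its own.

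Several enzyme pairs of the same complex or route stood in other proportions in HOMO. These ratios of RPKM within a library were chosen after the values were seen and are given with no test. Gldc over Amt was 0.0402 to 0.0835 in HOMO, 0.221 to 0.576 in HET and 0.384 to 0.484 in WT, so the HOMO libraries lay far below the others. Relative to Gcsh, the H protein that carries the aminomethyl group between them, Gldc was 0.0216 to 0.0358 in HOMO and 0.124 to 0.168 in WT, whereas Amt was 0.428 to 0.553 in HOMO and 0.305 to 0.379 in WT. Dmgdh over Sardh was 0.254 to 0.519 in HOMO, 1.66 to 1.83 in HET and 1.56 to 1.86 in WT. The HOMO libraries therefore had less Dmgdh than Sardh RNA per length, and the HET and WT libraries more. Prodh2 over Hoga1, the aldolase that ends hydroxyproline breakdown, was 0.0749 to 0.109 in HOMO, 0.200 to 0.330 in HET and 0.197 to 0.337 in WT. Other ratios overlapped between HOMO and WT. Shmt1 over its mitochondrial counterpart Shmt2 was 1.03 to 1.21 in HOMO and 1.003 to 1.19 in WT. Gatm over Gamt, which methylates guanidinoacetate, was 12.6 to 17.6 in HOMO and 15.5 to 38.4 in WT. Bhmt over its homologue Bhmt2 was 0.0649 to 0.203 in HOMO and 0.0600 to 0.103 in WT. Bhmt over Dmgdh, of the next step, was 0.203 to 0.362 in HOMO and 0.199 to 0.369 in WT. Ratios of other gene pairs were not surveyed.

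**Figure D3:**
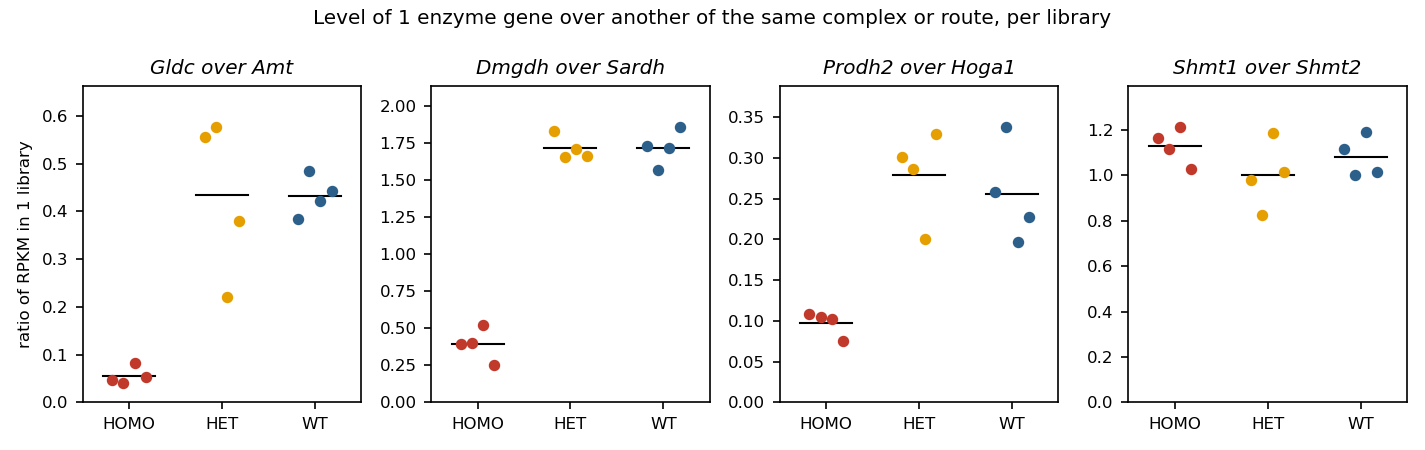
Each point is the ratio of the RPKM of 2 enzyme genes in 1 library, by genotype, with a bar at the mean. Gldc over Amt, Dmgdh over Sardh and Prodh2 over Hoga1 are lower in all 4 HOMO libraries, whereas Shmt1 over Shmt2 overlaps, at 1.03 to 1.21 in HOMO and 1.003 to 1.19 in WT.

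Since proximal tubule markers fell as a list, the 10 genes were also fitted with each library scaled to the geometric mean of the 17 markers. The markers themselves fell on the TMM scale, from -1.83 for Cubn, an endocytic receptor, to -4.93 for Miox, the first enzyme of inositol breakdown, with Slc13a3, a dicarboxylate transporter, at the median of -3.35. The fold changes of the 10 genes, -4.87 to -1.87, lay within that span. Relative to the marker mean 5 genes were lower in HOMO than in WT, as were 1.51% of all genes. Another 3 were higher, as were 95.8% of all genes, and 2 were not called, with 97.3% of genes called in all. The marker mean was 112 to 132 CPM in HOMO and 1098 to 1289 CPM in WT, so this scale raises most genes in HOMO. The shares over all genes therefore do not describe proximal tubule genes. The p-values treat the marker mean as fixed and leave out the spread between the markers.

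The 5 genes that fell further than the marker mean were Gldc, Dmgdh, Dao, Prodh2 and Bhmt. Their log2 fold changes on the marker scale were -1.63 ± 0.32 for Gldc (SE; adjusted p = 3.12e-04), -1.03 ± 0.14 for Dmgdh (adjusted p = 3.59e-06) and -1.004 ± 0.13 for Dao (adjusted p = 3.80e-06). Prodh2 was at -0.87 ± 0.15 (adjusted p = 7.17e-05) and Bhmt at -0.87 ± 0.33 (adjusted p = 0.0205). Dao over the marker mean was 0.754, 0.690, 0.446 and 0.696 in HOMO libraries and 1.35, 1.29, 1.23 and 1.32 in WT libraries, with no overlap. The Bhmt ratio overlapped between genotypes, at 0.00848 to 0.0235 in HOMO and 0.0185 to 0.0471 in WT. Its call was lost without HOMO library 4 (-0.67, adjusted p = 0.0553) and without WT library 4 (-0.62, adjusted p = 0.0776).

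Amt, Sardh and Shmt1 fell less than the marker mean. Relative to it they stood higher by 1.36 ± 0.13, 1.13 ± 0.10 and 1.07 ± 0.08 on the log2 scale (SE; adjusted p = 8.04e-08 for Amt, 3.37e-08 for Sardh and 5.74e-09 for Shmt1). The Shmt1 ratio to the marker mean was 0.381, 0.376, 0.384 and 0.403 in HOMO libraries and 0.193, 0.184, 0.182 and 0.174 in WT libraries. Gatm and Agxt2 were not called, at 0.09 ± 0.22 (adjusted p = 0.691) and 0.14 ± 0.22 (adjusted p = 0.540). The Agxt2 ratio was 1.36, 1.67, 0.643 and 0.927 in HOMO libraries and 1.04, 0.938, 1.03 and 1.16 in WT libraries, so HOMO libraries lay on both sides of the WT range. Without the library labelled HOMO 3 no call on the marker scale changed, and Agxt2 was at 0.34 (adjusted p = 0.0520) and Gatm at 0.27 (adjusted p = 0.148). Whether the fibroblast and immune cell RNA that rose with these changes had a part in them was not tested.

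**Figure D4:**
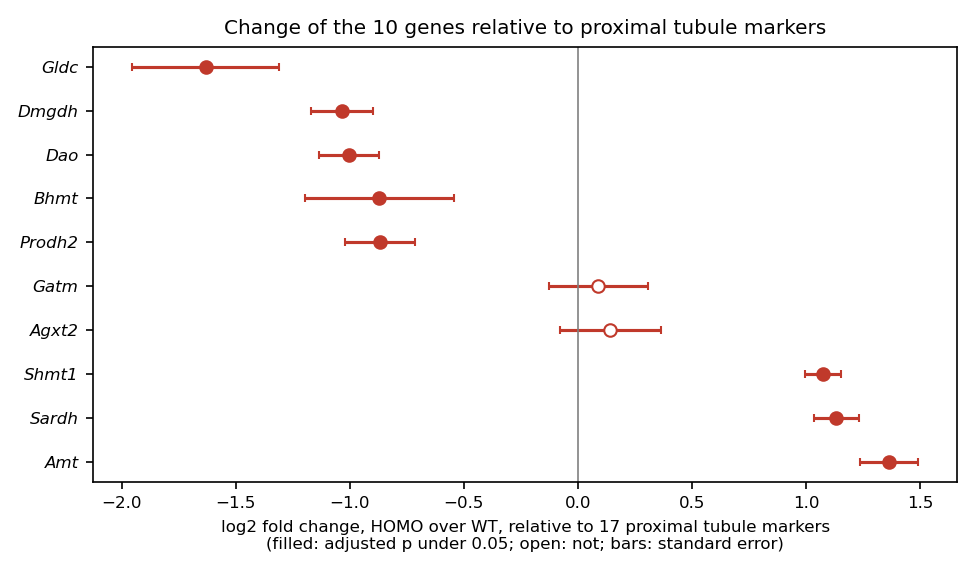
Log2 fold change of each gene in HOMO against WT when libraries are scaled to the geometric mean of 17 proximal tubule markers, with standard errors as bars and filled points for adjusted p under 0.05. Gldc, Dmgdh, Dao, Bhmt and Prodh2 are below 0, Gatm and Agxt2 are open points near 0, and Shmt1, Sardh and Amt lie at 1.07, 1.13 and 1.36.

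Sequence upstream of the start site is shown for Prodh2, Dao and Amt, whose windows each hold motifs named below. Prodh2 and Dao fell further than the marker mean, and Amt fell least. The 250 bases before the start are from RefSeq (GRCr8), and 9 of the 10 genes had a window, Sardh with 2 and Dmgdh with none. Capitals mark GTTAAT, the core of the HNF1 binding motif, AGGTCA, the hexamer bound by many nuclear receptors, and TATAAA, the TATA box, on either strand (ATTAAC and TGACCT are the first pair read on the other strand).
Prodh2, chr1:94880837-94881086, plus strand: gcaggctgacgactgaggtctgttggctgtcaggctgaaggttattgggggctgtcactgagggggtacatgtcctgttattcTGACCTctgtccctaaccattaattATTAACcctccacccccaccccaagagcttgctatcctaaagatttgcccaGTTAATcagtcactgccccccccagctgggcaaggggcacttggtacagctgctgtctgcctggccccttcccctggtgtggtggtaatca
Dao, chr12:48273301-48273550, minus strand: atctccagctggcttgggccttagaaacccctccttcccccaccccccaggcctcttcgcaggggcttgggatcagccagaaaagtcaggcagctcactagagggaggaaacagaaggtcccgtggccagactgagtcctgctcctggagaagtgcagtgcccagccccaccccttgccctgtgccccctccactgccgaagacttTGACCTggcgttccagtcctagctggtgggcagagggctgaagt
Amt, chr8:117860187-117860436, plus strand: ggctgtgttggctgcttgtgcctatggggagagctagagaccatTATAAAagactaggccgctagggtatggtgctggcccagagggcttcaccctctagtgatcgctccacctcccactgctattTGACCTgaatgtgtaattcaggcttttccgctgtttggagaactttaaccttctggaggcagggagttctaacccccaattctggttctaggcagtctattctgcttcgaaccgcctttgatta

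GTTAAT was present upstream of 2 of the 9 genes, Prodh2 and Sardh, and in 6.45% of all 33469 windows in the RefSeq table. AGGTCA was present upstream of 5, Prodh2, Bhmt, Sardh, Amt and Dao, and in 14.1% of windows. TATAAA was present upstream of 3, Bhmt, Agxt2 and Amt, and in 12.9% of windows. The windows of Gldc, which fell furthest of the members, Gatm and Shmt1 held none of these motifs. Whether a match goes with the size of the fall was not tested. In Prodh2 the GTTAAT matches began 142 and 91 bases before the start, and in Bhmt the TATAAA match began 29 bases before it. The motifs do not overlap each other in these windows, and a match says nothing of binding.

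The partners of glycine cleavage and conjugation were lower in HOMO than in WT in 8 of 9 tested cases, 0 were higher, and the median log2 fold change was -1.71. Between 7 and 8 were lower over the 20 alternative processing settings. Gcsh had a log2 fold change of -2.40 ± 0.07 (SE; adjusted p = 6.32e-11), between those of Gldc and Amt, and Dld, the dehydrogenase shared with other complexes, of -1.71 ± 0.10 (adjusted p = 7.23e-09). Glyat, which conjugates glycine to acyl groups, fell by 3.93 ± 0.13 (adjusted p = 1.21e-10), with 111 ± 20.8 CPM in HOMO and 1691 ± 91.3 CPM in WT (SD, n = 4 each). Gcat, which splits 2-amino-3-ketobutyrate into glycine, fell by 2.58 ± 0.15 on the log2 scale (adjusted p = 1.18e-08). Lipt2, which attaches the precursor of the lipoyl cofactor of the H protein, was not called at 0.05 ± 0.16 (adjusted p = 0.772), and was higher at 0.67 (adjusted p = 0.00214) when libraries were scaled by their totals alone.

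In the choline list 14 of 20 genes fell, 3 rose and 3 were not called, with a median of -1.61. Enzymes of betaine formation and use fell: the log2 fold change was -1.68 ± 0.13 for Chdh, choline dehydrogenase (SE; adjusted p = 1.29e-07), -2.50 ± 0.09 for Aldh7a1, a betaine aldehyde dehydrogenase (adjusted p = 2.39e-10), and -1.88 ± 0.08 for Aldh9a1 (adjusted p = 8.05e-10). Bhmt2, a homologue of Bhmt that uses S-methylmethionine, fell by 4.40 ± 0.24 (adjusted p = 7.63e-09). Gnmt, which forms sarcosine from glycine, fell to 0.414 ± 0.0714 CPM in HOMO, against 5.56 ± 0.779 CPM in WT (SD, n = 4 each), and Pipox, which oxidises sarcosine and pipecolate, was at 0.200 ± 0.160 CPM in HOMO and 0.840 ± 0.257 CPM in WT (log2 fold change -2.02 ± 0.50, adjusted p = 0.00268). The genes that rose were Slc44a1, a choline transporter, by 1.31 ± 0.07 (adjusted p = 5.23e-09), Slc44a2 of the same family, by 0.96 ± 0.13 (adjusted p = 1.81e-05), and Pemt, which methylates phosphatidylethanolamine to phosphatidylcholine, by 1.44 ± 0.25 (adjusted p = 1.95e-04). Pemt was low in both genotypes, at 3.48 ± 0.576 CPM in HOMO and 1.27 ± 0.332 CPM in WT (SD). With libraries scaled by their totals alone 12 choline genes were lower and 5 higher.

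In the creatine list 4 of 7 tested genes fell, 1 rose and 2 were not called, with a median of -1.68. The log2 fold change was -2.52 ± 0.21 for Gamt (SE; adjusted p = 3.15e-07), -1.68 ± 0.14 for Slc6a8, the creatine transporter (adjusted p = 2.48e-07), and -1.83 ± 0.12 for Slc16a12, which carries creatine and guanidinoacetate (adjusted p = 2.63e-08). Ckb, the brain-type creatine kinase, was the gene that rose, with 229.0 ± 34.5 CPM in HOMO and 106 ± 19.5 CPM in WT (SD, n = 4 each; adjusted p = 9.51e-06). On the scale of library totals 4 creatine genes were lower and 2 higher.

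All 9 genes of serine synthesis and breakdown fell, with a median of -2.33, and 8 to 9 were lower over the 20 alternative processing settings. Shmt2 had a log2 fold change of -2.23 ± 0.10 (SE; adjusted p = 8.15e-10), beside -2.16 for Shmt1, and Glyctk, glycerate kinase, of -3.03 ± 0.12 (adjusted p = 3.12e-10). Ddo, the D-aspartate oxidase related to Dao, fell by 2.40 ± 0.19 on the log2 scale (adjusted p = 1.63e-07), with 3.38 ± 1.12 CPM in HOMO and 17.9 ± 1.64 CPM in WT (SD, n = 4 each). Sds, serine dehydratase, had 2 counts in all in HOMO, from 1 library, and 250 in WT, a ratio of 0.00541 per scaled library (exact 95% interval 6.52e-04 to 0.0198, counting error only).

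Of 22 folate and methionine cycle genes 16 fell and 6 rose, with a median of -1.24. Over the 20 alternative processing settings 13 to 16 were lower and 6 higher. Mthfd1, a cytosolic enzyme that interconverts folate-bound carbon units, fell by 2.22 ± 0.11 on the log2 scale (SE; adjusted p = 2.01e-09). The genes that rose were Mthfd1l by 2.31 ± 0.21, Mthfd2 by 1.37 ± 0.20, Mthfd2l by 1.20 ± 0.23 and Aldh1l2 by 3.64 ± 0.63, which act in mitochondrial folate metabolism, with Mat1a by 2.94 ± 0.44 and Slc46a1 by 0.56 ± 0.16. Their largest adjusted p was 0.00627, for Slc46a1. Mthfd1l had 14.3 ± 2.35 CPM in HOMO and 2.87 ± 0.784 CPM in WT (SD, n = 4 each). All of these rises started from low WT levels, with means of 0.991 CPM for Mthfd2l, 3.26 CPM for Mthfd2 and 5.49 CPM for Slc46a1. The 2 largest rises started from the lowest. Aldh1l2 had 3.44 ± 2.48 CPM in HOMO and 0.277 ± 0.135 CPM in WT, with a wide spread in HOMO. Mat1a had 4.74 ± 1.18 CPM in HOMO and 0.613 ± 0.378 CPM in WT. Cbs, which commits homocysteine to cysteine, fell by 3.89 ± 0.17 (adjusted p = 9.14e-10), with 17.9 ± 4.46 CPM in HOMO and 266.7 ± 6.02 CPM in WT.

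Of the genes of proline, hydroxyproline and glyoxylate 7 of 9 tested fell and 2 rose, with a median of -2.14. The log2 fold change was -2.75 ± 0.12 for Hoga1 (SE; adjusted p = 7.41e-10), -2.61 ± 0.13 for Aldh4a1, the dehydrogenase between Prodh2 and Hoga1 (adjusted p = 2.51e-09), and -3.73 ± 0.13 for Grhpr, which reduces glyoxylate and hydroxypyruvate (adjusted p = 1.64e-10). Ldha, a lactate dehydrogenase subunit that can also act on glyoxylate, rose by 0.64 ± 0.10 (adjusted p = 5.52e-05). In the list of beta-amino acid and dimethylarginine breakdown, which holds the other substrates of Agxt2, 10 of 11 fell and 1 rose, with a median of -2.33. Under the 20 alternative processing settings 9 to 10 of this list were lower. Abat, the aminotransferase of GABA and beta-alanine, fell by 3.99 ± 0.13 (adjusted p = 1.16e-10), and Aldh6a1, methylmalonate semialdehyde dehydrogenase, fell by 3.20 ± 0.12 (adjusted p = 2.27e-10). The dimethylarginine hydrolases split, with Ddah1 at -2.47 ± 0.14 (adjusted p = 8.24e-09) and Ddah2 at 0.99 ± 0.06 (adjusted p = 8.91e-09).

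The list drawn as glycine, proline and betaine transport also holds subunits of exchangers of cystine and basic amino acids. In that list 7 of 8 tested genes fell and 1 rose, with a median of -2.17. Slc6a20, a proline and imino acid carrier, fell by 2.62 ± 0.12 (SE; adjusted p = 1.14e-09), and Slc7a9, of the cystine and basic amino acid exchanger, fell by 1.72 ± 0.14 on the log2 scale (adjusted p = 1.35e-07). Slc6a9, a glycine transporter, was at 13.2 ± 8.86 CPM in HOMO and 4.51 ± 1.18 CPM in WT (SD, n = 4 each), a log2 fold change of 1.55 ± 0.40 (adjusted p = 0.00372). Without the library labelled HOMO 3 the Slc6a9 log2 fold change was 0.96 and still called. In HET against WT 0 genes of any of these 8 lists were called, with list medians between -0.06 and 0.03. Tdh, Ckm, Ckmt2, Agxt, Pycr1, Aldh18a1 and Slc36a2 did not pass the filter on low counts and have no test. The fibroblast and macrophage marker sums given above rose in HOMO against WT, while the median of each of these 8 lists fell. The part of those cells was not tested.

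**Figure D5:**
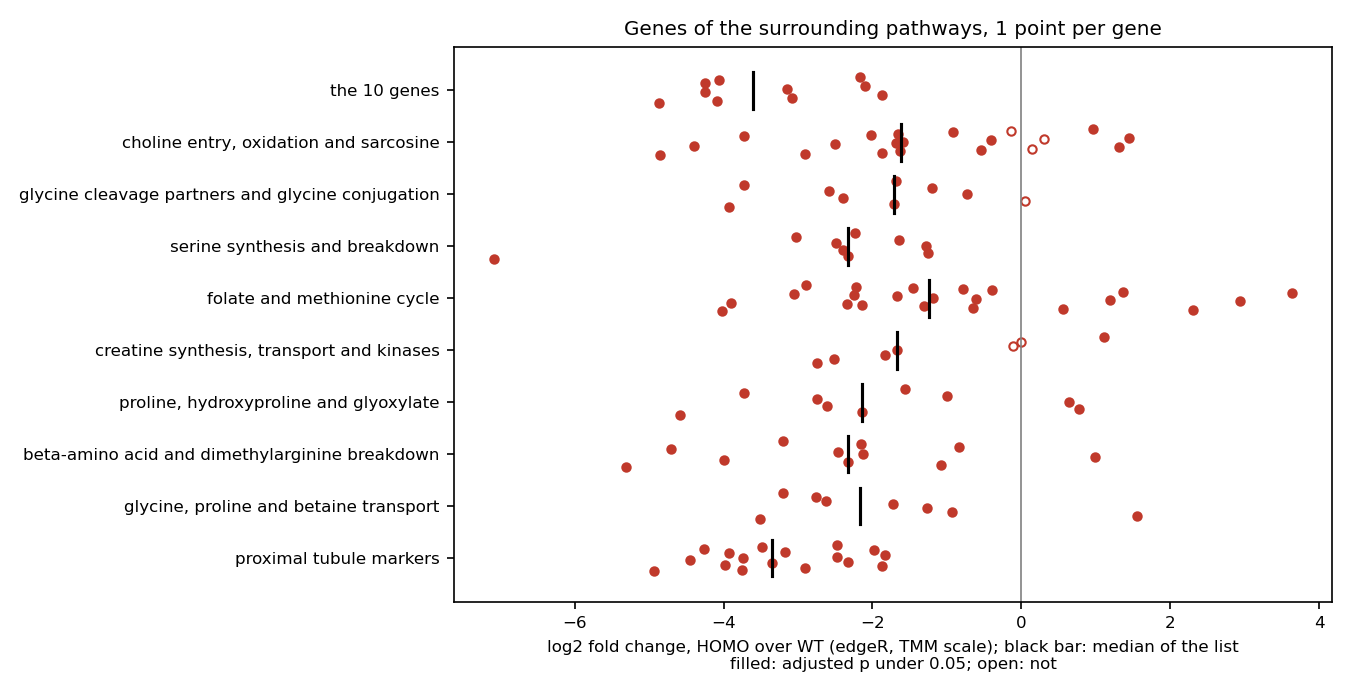
Each point is the HOMO over WT log2 fold change of 1 gene, by list, filled where the adjusted p was under 0.05, with a bar at the list median. The median of the 10 genes lies at -3.60, near that of the 17 proximal tubule markers at -3.35, the other 8 medians lie between -2.33 and -1.24, and the leftmost point, Sds, rests on 2 counts in HOMO.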

How the data were processed

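Per the labels' protocols, RNA came from a Trizol extraction and the library kit was stranded and selected mRNA. The authors deposited raw read counts per gene and RPKM values in a single table, per the file headers. For each of the 3 pairs of genotypes they also deposited a log2 fold change, a p-value, its false discovery rate and a score of -1, 0 or 1 for the call. The submitters' processing notes name the genome build Rnor_6.0 and edgeR 3.8.6. No source used here gives the aligner, the counter or its use of strand, nor the treatment of reads that fit related genes such as Bhmt and Bhmt2, or Dmgdh and Sardh. The deposited RPKM values matched count per listed length and library total with a median deviation of 0.0416% over values of at least 50 counts, so the counts were used. Listed starts are printed as deposited.

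Genes were kept by filterByExpr (minimum count 10, minimum total 15), which left 15856 of 22687 genes with a count. All 12 libraries entered a single negative binomial model of genotype, with TMM factors and robust quasi-likelihood dispersion (edgeR 4.0.16 in R 4.3.3). Adjusted p-values are by Benjamini-Hochberg over all genes tested, and a gene that rose, fell or was called had one under 0.05. Standard errors are the absolute log2 fold change over the root of its F statistic. The scripts were tested on simulated data. Alternatives used RLE factors, library totals alone, no filter, at least 1 CPM in 4 libraries, DESeq2 1.42.0, voom in limma 3.58.1, the 8 libraries of a comparison on their own, a block for the replicate number, and each library left out. The fit relative to proximal tubule markers was repeated with summed markers and without the most abundant marker, and, chosen after seeing the data, with the replicate block.

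The members and lists were chosen with earlier results of these data known. All 10 members were named, with, from each list, the 2 genes of smallest p-value, the gene of smallest p-value against the list's median, and genes acting on a member's substrate. Of the genes this rule picks, 2 are not reported here. Others were named after their values were seen: Slc44a2, Pemt, Mthfd1, Mthfd2, Mthfd2l, Aldh1l2, Mat1a, Slc46a1, Ldha and Sds. The single markers named outside the proximal tubule were also chosen that way. Of 183 list symbols 5 were not matched and are not analysed here. No source pairs the libraries by replicate number, and same-numbered libraries did not all deviate together, so the main fit has no block.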

Additional observations from a re-analysis of the deposited data

How the results depend on the processing

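All 10 genes were lower in HOMO under all 20 alternatives against WT and all 20 against HET, and 0 were called in HET against WT under any of the 20. Genes called numbered 10494 to 12853 over the alternatives in HOMO against WT and 10450 to 12893 in HOMO against HET. Each log2 fold change in HOMO against WT kept its sign and call, and leaving out 1 library at a time gave -5.03 to -4.78 for Gldc, at one end of the 10, and -1.93 to -1.80 for Amt, at the other. The estimates for HET, close to 0, changed sign under some settings with no call. With library totals alone Gatm was at -0.00587, with voom Gatm was at -0.00467 and Gldc at -0.0624. Leaving out 1 library gave -0.16 to 0.11 for Gatm, -0.0987 to 0.0276 for Dmgdh, -0.0995 to 0.0155 for Sardh, -0.0687 to 0.0304 for Shmt1, -0.16 to 0.33 for Gldc, -0.0498 to 0.120 for Amt, -0.0454 to 0.158 for Prodh2 and -0.00112 to 0.0738 for Dao in that comparison. Relative to the proximal tubule markers 4 to 5 genes were lower and 3 higher under all 15 alternatives, Bhmt being the gene whose call was lost, and leaving out 1 library gave -0.0138 to 0.269 for Gatm and -0.0956 to 0.339 for Agxt2. Lipt2 ran from -0.0346 to 0.150 without 1 library. The causes were not tested.

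With the replicate number as a block, all 10 genes were lower in HOMO against WT and against HET, and 5018 genes were lower and 5476 higher against WT, with 0 called in HET against WT. The HET estimates under the block were -0.0519 for Gatm, 0.0707 for Dmgdh, 0.0547 for Sardh, 0.00318 for Shmt1 and -0.0554 for Prodh2, and Bhmt relative to the markers was at -0.83 (adjusted p = 0.0695). Libraries of the same number deviated from their group means with correlations of -0.13 to 0.0223 in HOMO against WT, -0.0276 to 0.185 in HET against WT and -0.0959 to 0.440 in HOMO against HET. No comparison had all its correlations over 0.1, so the numbers were not taken as pairs. The best match was a library's own number for replicate 2 in HET against WT and replicate 1 in HOMO against HET, and for no number in HOMO against WT. With 4 libraries in each genotype, and Bhmt at 28 to 152 counts in HOMO libraries, the smaller differences between genes and the HET estimates rest on limited depth and few libraries.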
